A study of Homo sapiens with 4 samples.

Results

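The genes described here are 10 genes that respond to low oxygen or feed glycolysis: HIF1A, ADM, VEGFA, BNIP3, PFKFB3, PFKFB4, LDHA, HK2, SLC2A1 and SLC2A3. They were chosen by symbol, out of 19775 genes on the table, and every probe set annotated to them was read. The RNA came from U937, a long-established human cell line of monocyte-like character that the labels call a lymphoma line, and was hybridised to Affymetrix Human Genome U133 Plus 2.0 arrays. There were 4 groups of 1 array each. The first received 0.05% Sonazoid, a suspension of gas microbubbles used as contrast agent in ultrasound imaging, together with 1 min of ultrasound at 0.3 W/cm2 (the combination). The second received that ultrasound dose only, the third that Sonazoid dose only, and the fourth was the untreated control. The 3 treated groups were incubated for 3 h afterwards at the culture temperature. How long the control cells were kept and whether they were handled like the treated ones are both not given in the sources, so handling cannot be told apart from treatment. Each group is a single culture of 1 cell line on 1 array, so array and treatment cannot be told apart either, and no difference below has a replicate check, a standard error or a p-value.

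Cells sense oxygen through hypoxia-inducible factor (HIF). When oxygen is plentiful its alpha subunit, encoded by HIF1A or EPAS1, is hydroxylated by the EGLN enzymes, bound by VHL and degraded, and when oxygen is scarce it pairs with ARNT and switches on genes for glucose uptake, glycolysis, blood vessel growth and mitochondrial turnover. The main control is on the stability of the protein, which an array does not measure. Monocytes and macrophages rely on glycolysis during activation, and several of these genes also answer to inflammatory and stress signals.

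HIF binds the core motif ACGTG or GCGTG. Promoter windows from 250 bases before to 50 bases after the gene start were taken from RefSeq (build GRCh38.p14), which gave 12 windows for 8 of the 10 genes, with no entry for VEGFA or SLC2A3. By the brightest probe set of each gene, ADM and PFKFB4 were the 2 farthest above control in the combination. BNIP3 and LDHA were the 2 nearest to it, though another probe set of BNIP3 was 0.25 above control on the log2 scale. Sequences are given for 1 window of each of these genes. These windows lie at chr11:10304823-10305122 (plus strand, ADM), chr3:48556754-48557053 (minus strand, PFKFB4), chr10:131981874-131982173 (minus strand, BNIP3) and chr11:18394313-18394612 (plus strand, LDHA, the first of its 2 windows). Letters run 5′ to 3′ along the gene, in lower case, and capitals mark each ACGTG or GCGTG on either strand; on the opposite strand these read CACGT and CACGC, and CACGTG holds ACGTG on both strands.
ADM: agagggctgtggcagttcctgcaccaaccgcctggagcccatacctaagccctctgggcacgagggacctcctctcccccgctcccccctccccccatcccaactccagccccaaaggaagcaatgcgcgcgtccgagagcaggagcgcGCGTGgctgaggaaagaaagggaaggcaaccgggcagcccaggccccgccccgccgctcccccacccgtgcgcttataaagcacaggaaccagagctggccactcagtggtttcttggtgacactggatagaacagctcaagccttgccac
PFKFB4: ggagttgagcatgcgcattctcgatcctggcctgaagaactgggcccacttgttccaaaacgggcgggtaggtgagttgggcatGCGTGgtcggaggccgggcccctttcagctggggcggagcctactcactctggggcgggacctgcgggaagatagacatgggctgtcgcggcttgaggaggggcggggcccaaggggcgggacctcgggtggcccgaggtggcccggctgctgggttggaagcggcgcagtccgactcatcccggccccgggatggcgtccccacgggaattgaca
BNIP3: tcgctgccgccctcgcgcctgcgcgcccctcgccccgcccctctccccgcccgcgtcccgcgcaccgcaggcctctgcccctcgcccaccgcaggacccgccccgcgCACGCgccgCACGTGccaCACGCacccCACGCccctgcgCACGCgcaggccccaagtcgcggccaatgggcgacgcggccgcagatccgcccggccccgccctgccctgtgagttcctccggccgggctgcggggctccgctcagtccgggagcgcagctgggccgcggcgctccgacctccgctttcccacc
LDHA: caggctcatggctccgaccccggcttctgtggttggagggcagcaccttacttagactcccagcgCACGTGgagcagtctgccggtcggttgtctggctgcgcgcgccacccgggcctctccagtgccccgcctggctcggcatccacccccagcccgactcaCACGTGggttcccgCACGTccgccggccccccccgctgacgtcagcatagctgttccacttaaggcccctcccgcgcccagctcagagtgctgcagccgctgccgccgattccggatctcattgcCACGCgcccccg

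The windows of ADM and PFKFB4 each held 1 marked stretch, a GCGTG on the plus strand of the gene. The first window of LDHA held 4 stretches and its second 1, a GCGTG, as many as those of ADM and PFKFB4. The window of BNIP3 held 5. Of 35116 RefSeq promoter windows of this length 48.4% held at least 1 stretch, 2.66% at least 4 and 0.945% at least 5. These shares are not matched for the content of G and C. It was 65% in the printed window of ADM, 68% for PFKFB4, 80.7% for BNIP3 and 70% for LDHA. The windows of HIF1A (the upstream one of 2), SLC2A1 and PFKFB3 (each of 2) also held 1 stretch each, and those of HK2 held 3 and 4. A match is a description of the letters and not evidence of a bound site, and sites outside these windows were not searched.

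Signals are linear probe set intensities, scaled so that the arrays have a common trimmed mean. A floor of 23.8, the median scaled value over all probe sets and arrays, replaced every lower value before log2 was taken. Where 1 of the arrays compared is at this floor the difference is a bound, written as "at least". A gene is represented by its brightest probe set, and it was counted as higher or lower at 2-fold, a log2 difference of 1. The 10 genes had 20 probe sets of their own, of which 17 were above the floor on all 4 arrays, 2 on some and 1 on none, and 2 more were shared between SLC2A3 and its close copy SLC2A14. All 10 genes were above the floor on every array by their brightest probe set. Of the 12 myeloid markers found, 10 were above the floor on all arrays and FCGR1A was below it on all, with a summed signal between 35018 and 43124. The 7 T and NK cell markers summed to between 101 and 191, with 1 above the floor on all arrays and CD3D and CD8A below it on all. The 4 B cell markers summed to between 185 and 231, with 2 above it and CD79B below it on all. The 7 fibroblast and endothelial markers summed to between 824 and 981, with 2 above it and CDH5 and VWF below it on all. The 4 erythroid and platelet markers summed to between 72.9 and 131, with 1 above it and PPBP below it on all, and the 5 epithelial markers to between 59.4 and 110, with 0 above it and EPCAM, KRT18 and CDH1 below it on all. The part of these cell types in the results was not tested. The control gene ACTB had signals of 19421 in the combination, 22436 with ultrasound only, 18718 with Sonazoid only and 20403 in control. Since RNA came from whole cultures, more cells with a transcript and more transcript per cell cannot be told apart.

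In the combination against control, the comparison in the title of the series, ADM and PFKFB4 were both about 2-fold higher, and the other 8 genes lay within 1.37-fold of control. The 2 genes make 2 of 10 at 2-fold or more higher, against 1.39% of the 12962 genes measured in this comparison, and 0 of 10 were 2-fold lower, against 0.872%. The 10 genes were picked with earlier results of these data known, ADM and PFKFB4 among them. Nothing is therefore read from that share, nor from the other shares of these genes given below. The median log2 difference of the 10 genes was 0.20, beside 0.00 for all genes measured. Of the 17 probe sets above the floor on all arrays 14 were above control in the combination, 13 with ultrasound only and 13 with Sonazoid only, against 48.1%, 49.7% and 50.4% of the 19648 such probe sets on the table.

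**Figure D1:**
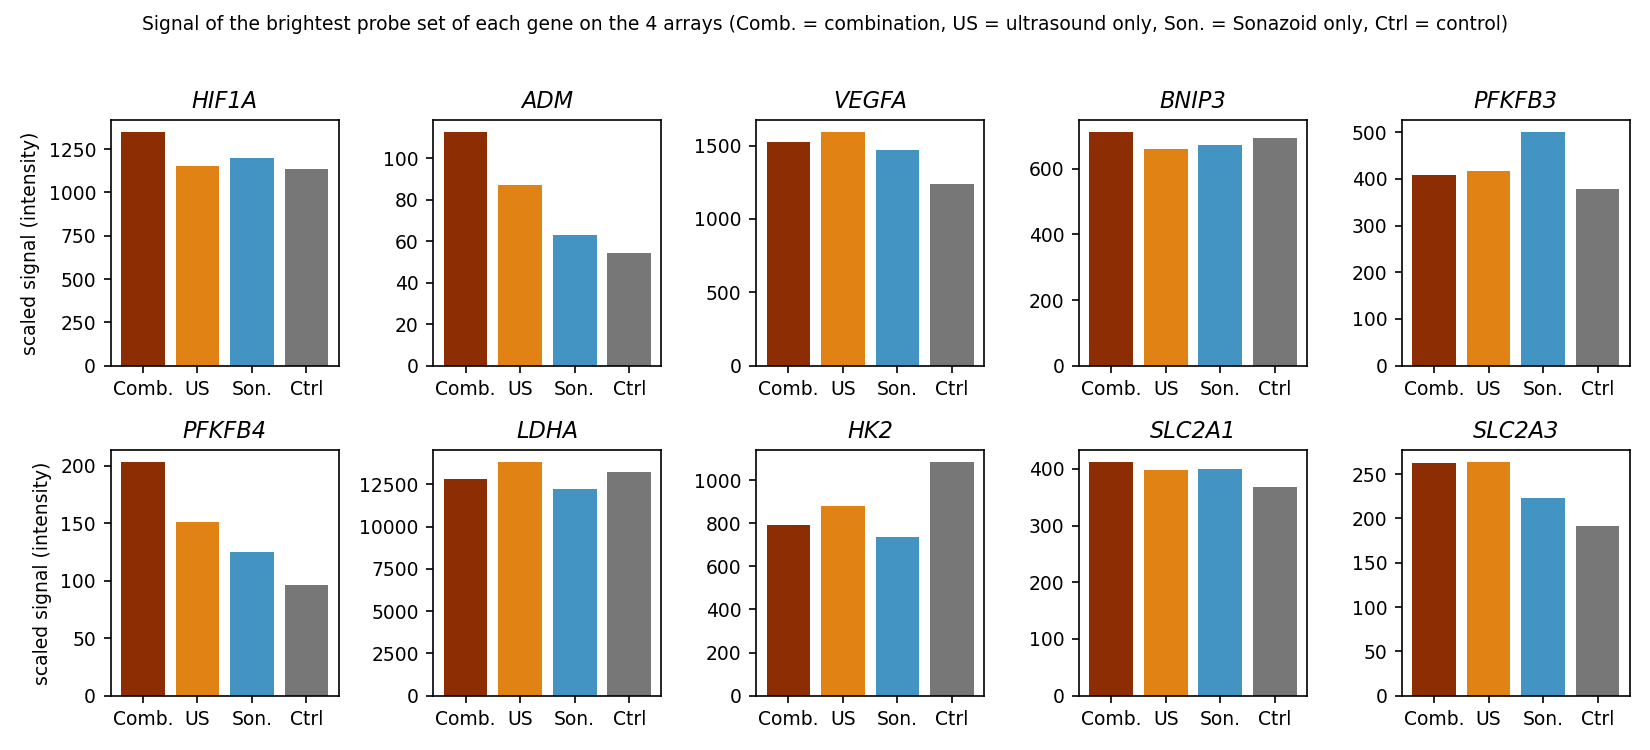
Scaled signal (linear intensity, axis from 0 and different for each gene) of the brightest probe set of the 10 genes on the 4 arrays, 1 bar per array and no error bars because each group has 1 array. ADM and PFKFB4 step down in the order combination, ultrasound only, Sonazoid only, control (112.7, 87.3, 63.1 and 54.5 for ADM), HK2 is highest in control, and LDHA and BNIP3 are nearly level.

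ADM encodes adrenomedullin, a secreted peptide that widens blood vessels and is made by monocytes and macrophages. Its single probe set stood at 112.7 in the combination, 87.3 with ultrasound only, 63.1 with Sonazoid only and 54.5 in control. All 3 treated arrays were above control, and the combination was highest. ADM was 2.07-fold higher in the combination than in control, above 98.8% of the genes measured, 1.60-fold higher with ultrasound only and 1.16-fold higher with Sonazoid only. Its signal is dim. Among genes with a mean signal of 50 to 200, a window chosen after the values were seen that holds ADM and PFKFB4, 2.19% were at least 2-fold higher in the combination than in control.

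PFKFB4 encodes 1 of the bifunctional enzymes that make and break the fructose bisphosphate activating phosphofructokinase, and it is a known HIF target. Its brighter probe set stood at 203 in the combination, 150.7 with ultrasound only, 125.3 with Sonazoid only and 96.4 in control, the same order as ADM. It was 2.11-fold, 1.56-fold and 1.30-fold higher than control on the combination, ultrasound only and Sonazoid only arrays. Its other probe set was below the floor on all 4 arrays, between 4.37 and 11.6, and gives no difference. Both genes lie close to the 2-fold line. With no floor and 16 added to every signal the log2 difference in the combination was 0.87 for ADM and 0.96 for PFKFB4, below the line, and with a floor of 100 that of ADM was at least 0.17.

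ADM and PFKFB4 were the only 2 of the 10 genes in the full order combination, ultrasound only, Sonazoid only, control from high to low. Of the 10628 genes above the floor on all arrays 5.21% had this order, which was looked for after the values were seen. Under quantile normalisation SLC2A1 and SLC2A3 also had it, against 5.48% of genes. With the values as deposited SLC2A3 also did, against 9.22%, and as the mean of probe sets BNIP3 did, against 4.20%. With a floor of 100, which ADM and PFKFB4 do not clear on every array, 0 of the 8 genes left had it, against 5.39%. Control was the lowest array for 7 of the 10 genes, all but BNIP3, LDHA and HK2, against 23.6% of those 10628 genes. With the values as deposited it was lowest for 6, without HIF1A, against 32.5% of genes. As the mean of probe sets it was lowest for 7, with BNIP3 and HK2 in place of VEGFA and SLC2A1, against 18.7% of genes. It was lowest for 5 of 8 with a floor of 100, against 22.1%, and for 3 of 5 with gene-specific probe sets, against 24.2%. The 3 differences from control share the control array, so a low control signal enters all 3 at once.

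The other bifunctional enzyme, PFKFB3, known for its strong kinase activity and its induction in activated macrophages, had a different pattern. Its probe set stood at 409 in the combination, 417 with ultrasound only, 500.3 with Sonazoid only and 379 in control. The Sonazoid only array was the high one, 1.32-fold above control and above 92.1% of genes in that comparison, while the combination was 0.11 and ultrasound only 0.14 above control on the log2 scale. PFKFB3 thus stood 1.22-fold lower in the combination than with Sonazoid only, where PFKFB4 stood 1.62-fold higher.

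**Figure D2:**
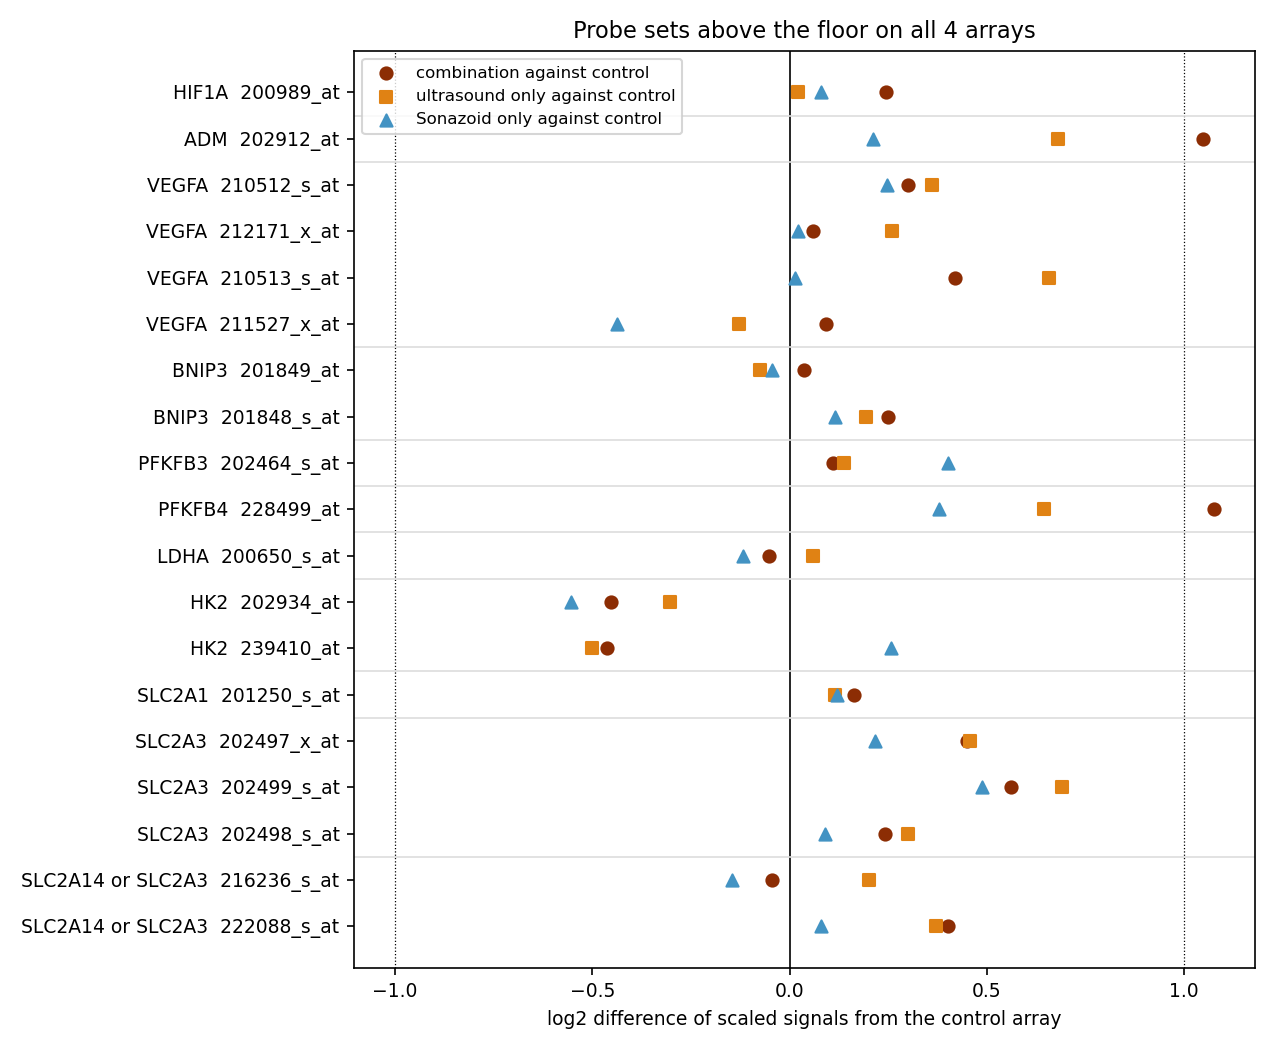
Log2 difference from the control array for the 19 probe sets above the floor on all arrays, 17 of the 10 genes and 2 shared between SLC2A3 and SLC2A14; circles are the combination, squares ultrasound only and triangles Sonazoid only, and dotted lines mark 2-fold. Only the circles of ADM and PFKFB4 pass the upper dotted line, at 1.05 and 1.08, and the probe sets of VEGFA and HK2 differ among themselves.

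HIF1A encodes the oxygen-regulated subunit itself. Its signal was 1348 in the combination, 1154 with ultrasound only, 1202 with Sonazoid only and 1137 in control. The combination array was highest, 1.19-fold above control, and ultrasound only differed from control by 0.02 on the log2 scale, a sign that turned with the values as deposited. The transcript therefore differed by less from control than those of ADM and PFKFB4 on the same arrays.

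VEGFA encodes the growth factor that drives blood vessel formation. Its brightest probe set stood at 1523 in the combination, 1591 with ultrasound only, 1470 with Sonazoid only and 1238 in control, so the treated arrays were 1.23-fold, 1.29-fold and 1.19-fold above it. A dimmer probe set (210513_s_at) stood at 197 in the combination, 232 with ultrasound only, 148.6 with Sonazoid only and 147.2 in control. By this probe set the 2 arrays with ultrasound were 1.34-fold and 1.58-fold above control and Sonazoid only was level with it. The other 2 probe sets, of a type that can bind related sequences, had log2 differences from control between -0.44 and 0.26. Averaged over the 4 probe sets, VEGFA with Sonazoid only was 0.04 below control on the log2 scale, against 0.25 above by the brightest.

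BNIP3 encodes a protein of the outer mitochondrial membrane that marks mitochondria for removal by autophagy. Its brighter probe set stood at 712 in the combination, 659 with ultrasound only, 673 with Sonazoid only and 694 in control, a spread of 1.08-fold over the 4 arrays. The other stood at 321, 308 and 292 on the combination, ultrasound only and Sonazoid only arrays and 269.7 in control, 1.19-fold, 1.14-fold and 1.08-fold above it. The 2 probe sets disagree in sign for ultrasound only and for Sonazoid only against control. LDHA, which turns pyruvate into lactate, was near the top of the signal range at 12788 in the combination, 13811 with ultrasound only, 12200 with Sonazoid only and 13251 in control. Its largest difference from control was 1.09-fold, lower, with Sonazoid only. In the combination it was 0.05 below control on the log2 scale and 0.12 above it with the values as deposited.

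HK2 encodes the inducible hexokinase, the enzyme of the first step of glycolysis. Its brightest probe set stood at 792 in the combination, 878 with ultrasound only, 738 with Sonazoid only and 1083 in control. By this probe set all 3 treated arrays were lower, by 1.37-fold, 1.23-fold and 1.47-fold, and in the combination 7.60% of the genes measured lay lower still. The 2 dim probe sets had other patterns. One (239410_at) stood at 54.3 in the combination, 52.8 with ultrasound only, 89.3 with Sonazoid only and 74.8 in control, lower than control on the arrays with ultrasound and higher with Sonazoid only. The other (222305_at) was below the floor in control, at 8.95, and at 66.7 in the combination, 46.5 with ultrasound only and 52.2 with Sonazoid only, so it was at least 2.80-fold, 1.95-fold and 2.19-fold higher. Averaged over its 3 probe sets HK2 was at least 0.19 above control in the combination on the log2 scale, a bound set by 222305_at. The 2 probe sets above the floor on all arrays had log2 differences of -0.45 and -0.46 in the combination. Only 222305_at, under the floor in control, went the other way there. The direction of HK2 thus depends on the probe set.

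The glucose transporter genes SLC2A1 and SLC2A3 encode the ubiquitous and the high-affinity form. SLC2A1 stood at 412 in the combination, 398 with ultrasound only, 400.2 with Sonazoid only and 368 in control by its brightest probe set, 1.12-fold, 1.08-fold and 1.09-fold above control. Its other probe set was above the floor in control only, at 48.3, with 14.2 in the combination, 19.1 with ultrasound only and 21.4 with Sonazoid only, so it was at least 2.03-fold lower on each treated array, against the direction of the brighter one.

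SLC2A3 was higher on all 3 treated arrays by each of its 3 own probe sets. The brightest stood at 262 in the combination, 263 with ultrasound only, 223 with Sonazoid only and 192 in control, 1.37-fold, 1.37-fold and 1.16-fold above control. The next stood at 181 in the combination, 198 with ultrasound only, 172 with Sonazoid only and 123 in control, 1.48-fold, 1.61-fold and 1.40-fold above control. The third was 1.18-fold, 1.23-fold and 1.06-fold above control. Of the 2 probe sets shared with SLC2A14, one (222088_s_at) was 1.32-fold, 1.29-fold and 1.06-fold above control, and the other (216236_s_at) was 0.04 below control in the combination, 0.20 above it with ultrasound only and 0.15 below it with Sonazoid only on the log2 scale. Since the probe sets may read both copies, the share of SLC2A3 alone is uncertain.

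The difference with ultrasound was read in 2 comparisons that share no array, ultrasound only against control and the combination against Sonazoid only. Each sets 1 array against 1 array, so array and treatment cannot be told apart in either. ADM was 0.68 higher on the log2 scale without Sonazoid and 0.84 higher with it, and PFKFB4 0.64 and 0.70. These were the only 2 of the 10 genes at 1.5-fold or more higher in both pairs, against 1.77% of the 12009 genes measured in both. As the 10 genes were picked with earlier results of these data known, nothing is read from this share or those that follow. At 2-fold 0 of the 10 genes were higher in both pairs, against 0.408%. In ultrasound only against control alone, 0 of 10 were 2-fold higher and 0 were 2-fold lower, against 1.65% and 0.721% of genes. At 1.5-fold 2 of 10 were higher, against 6.75% of all genes and 10.3% of those with a mean signal of 50 to 200. In the combination against Sonazoid only, 0 of 10 were 2-fold higher and 0 lower, against 1.46% and 0.711%. At 1.5-fold 2 of 10 were higher, against 5.85% of all genes and 8.42% of those with a mean signal of 50 to 200. SLC2A3 was 0.46 and 0.24 higher in the 2 pairs, LDHA 0.06 and 0.07, and SLC2A1 0.11 and 0.04.

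**Figure D3:**
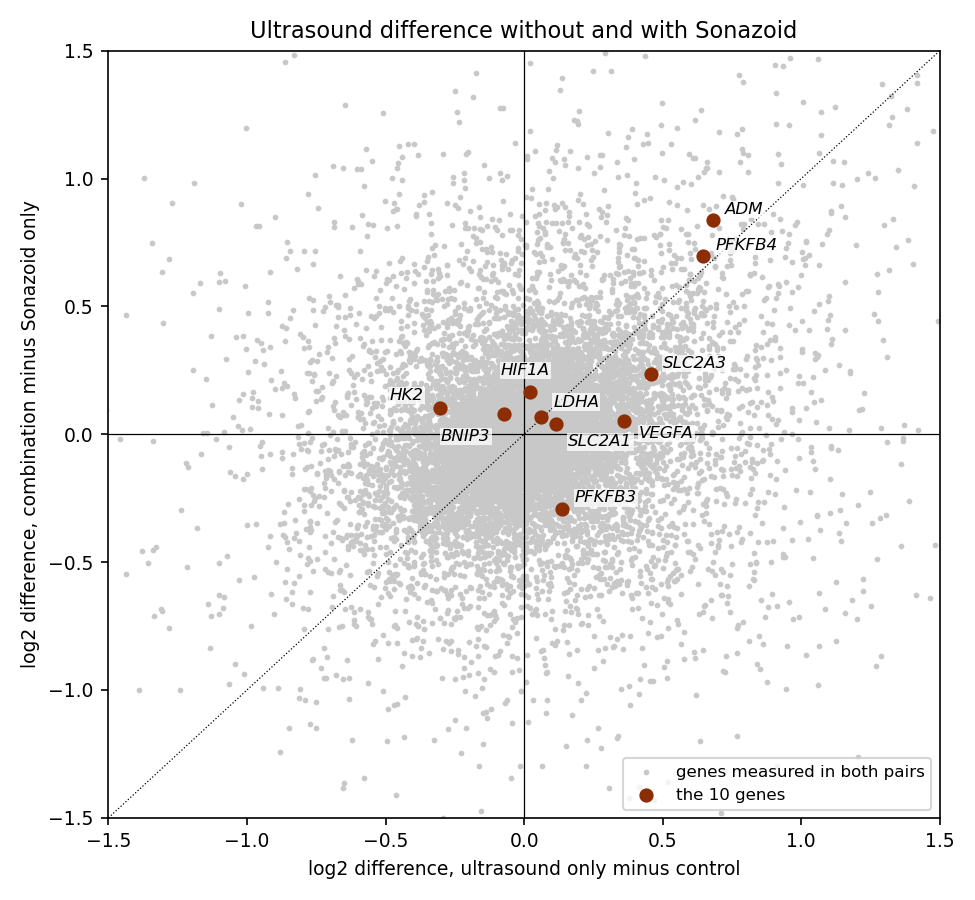
Log2 difference of ultrasound only minus control (horizontal) and of the combination minus Sonazoid only (vertical), which share no array, for the genes measured in both (grey, 98 of 12009 lie outside the axes) and the 10 genes (brown); the dotted line marks equal differences. ADM (0.68 and 0.84) and PFKFB4 (0.64 and 0.70) stand apart at the upper right, near the line, and the other 8 genes lie closer to 0.

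Averaged over its 2 comparisons, the Sonazoid difference was smaller in size than the ultrasound difference for ADM, PFKFB4, SLC2A3 and VEGFA. It was larger for the other 6 genes, though nearly tied for SLC2A1 (0.085 and 0.078 on the log2 scale). This split depends on the processing. With the values as deposited VEGFA changed sides, with ultrasound differences of 0.32 and 0.13 and Sonazoid differences of 0.34 and 0.15. In Sonazoid only against control 0 of 10 genes were 2-fold higher and 0 lower, against 0.652% and 0.715% of genes, and in the combination against ultrasound only 0 were higher and 0 lower, against 0.7% and 1.16%. ADM was 0.21 and 0.37 higher on the log2 scale in these 2 comparisons, which also share no array, and PFKFB4 0.38 and 0.43. At 1.5-fold 0 of the 10 genes were higher and 0 lower in both of them, against 0.531% and 0.754% of genes. HK2 had log2 differences of -0.55 and -0.15 by its brightest probe set, and PFKFB3 of 0.40 and -0.03; the second value of each was positive with the values as deposited.

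The departure from additivity is how much larger, on the log2 scale, the ultrasound difference was with Sonazoid than without it. It was 0.16 for ADM and 0.05 for PFKFB4, so on the log scale their signal in the combination was close to the sum of both single differences. The departures of the 10 genes ran from -0.43 for PFKFB3 to 0.41 for HK2, and 0 of 10 passed 2-fold either way, against 1.4% of 10628 genes upward and 1.48% downward. For HK2 the ultrasound difference was -0.30 without Sonazoid and 0.10 with it, by the brightest probe set. The departure of HK2 was -0.14 as the mean of its probe sets, 1 of which was at the floor in control.

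The genes with profiles most like that of ADM, by Euclidean distance of the 3 log2 differences from control among the 10628 genes, were MICA, a stress-induced ligand of natural killer cells (distance 0.07), the proprotein convertase FURIN (0.11) and NFKBIZ, a regulator of NF-kB (0.12). MICA stood at 332 in the combination, 247 with ultrasound only, 179 with Sonazoid only and 152.7 in control. For PFKFB4 they were FURIN (0.10), the co-chaperone DNAJA4 (0.15) and MICA (0.17). FURIN stood at 110.8 in the combination, 88.6 with ultrasound only, 68.6 with Sonazoid only and 55.1 in control. Within a distance of 0.25 lay 17 genes for ADM and 15 for PFKFB4, each over 4 single arrays.

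Among regulators of the HIF pathway 12 of 15 were measured in the combination against control, and ARNT2, EGLN2 and EGLN3 were below the floor on all arrays. The list had 0 members at 1.5-fold either way, against 5.87% of all genes higher and 4.67% lower, and its median of -0.04 turned positive with the values as deposited. EPAS1, the other main alpha subunit, stood at 353 in the combination, 281 with ultrasound only, 287 with Sonazoid only and 254 in control, 1.39-fold higher in the combination. Another probe set of EPAS1 was only 0.13 higher in the combination on the log2 scale. The partner subunit ARNT was 1.15-fold lower and HIF3A, a regulator of the pathway, at least 1.16-fold lower with a signal near the floor and another probe set going the opposite way.

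Of 19 other hypoxia-induced genes measured, 2 were at least 2-fold higher in the combination and 0 lower, against 1.39% and 0.872% of all genes, with a list median of 0.14 (0.00 as the mean of probe sets). Both were also high with ultrasound only and not with Sonazoid only. This list, like the other lists here, was written with earlier results of these data known, so nothing is read from its counts. HMOX1, which degrades heme, stood at 2550 in the combination, 2306 with ultrasound only, 663 with Sonazoid only and 758 in control. DDIT4, an inhibitor of mTORC1, stood at 1666 in the combination, 1700 with ultrasound only, 549.7 with Sonazoid only and 538 in control. Unlike ADM and PFKFB4, these 2 genes were nearly equal on the arrays with ultrasound, with log2 differences of 0.15 and -0.03 for the combination against ultrasound only. ANGPTL4, a secreted inhibitor of lipoprotein lipase, was above the floor in control only (45.1) and at least 1.89-fold lower on each treated array.

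Of 15 other glycolytic enzymes measured in the combination 0 were 1.5-fold higher and 0 lower, against 5.87% and 4.67% of all genes, shares at which a list of this size would hold few or none. The median was -0.09, positive (0.08) with the values as deposited. PFKL, a phosphofructokinase subunit, and HK1, the constitutive hexokinase, were each 1.39-fold lower, and PFKM, another subunit with a dim signal, was 1.27-fold higher. PFKL stood at 434 in the combination, 518 with ultrasound only, 472 with Sonazoid only and 604 in control. With ultrasound only ENO2, an enolase, was at least 1.66-fold higher at 39.6, and it was below the floor in control.

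**Figure D4:**
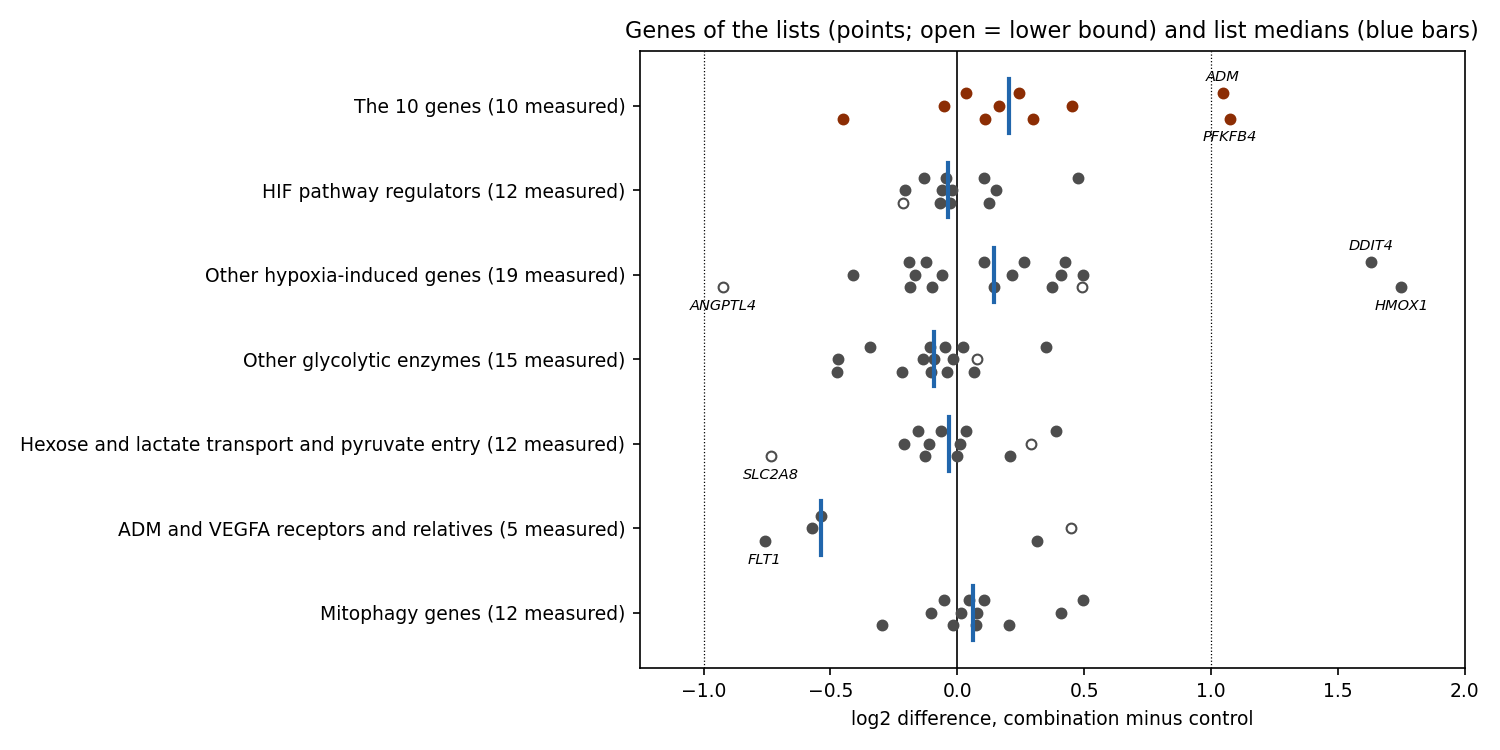
Log2 difference of the combination minus control for the 10 genes (brown) and the genes of 6 related lists (grey), with open points for lower bounds, blue bars for medians over the measured genes and dotted lines at 2-fold. DDIT4 and HMOX1 (1.63 and 1.75) lie farthest to the right, ADM and PFKFB4 just past the line, and the medians of the 6 lists lie between -0.54 and 0.14.

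Genes of hexose and lactate transport and pyruvate entry had a median of -0.03 over 12 measured, with 0 at 2-fold either way, against 1.39% of all genes higher and 0.872% lower. MPC1, a subunit of the mitochondrial pyruvate carrier, was 1.31-fold higher at 2391 in the combination, against 1825 in control. The transporter SLC2A8 was at least 1.66-fold lower in the combination and with ultrasound only. SLC2A6, a transporter of myeloid cells, was at least 1.22-fold higher in the combination and at least 1.57-fold higher with ultrasound only. Of the receptors and relatives of ADM and VEGFA only 5 of 11 were measured in the combination, with a median of -0.54 that turned positive with a floor of 100. The ADM receptor CALCRL and its partner RAMP2 were below the floor on all arrays by their brightest probe sets, and so was the VEGFA receptor KDR. RAMP1, another partner, was above it with ultrasound only, at 37.9, and RAMP3, the third, on the 3 treated arrays, at 32.5 in the combination, 26.8 with ultrasound only and 28.3 with Sonazoid only, against 22.3 in control, which is at least 1.37-fold higher in the combination. CALCRL, RAMP2, RAMP3 and KDR are named here after their values were seen. FLT1, another VEGFA receptor, was 1.69-fold lower in the combination, and the co-receptors NRP1 and NRP2 1.49-fold and 1.45-fold lower, all 3 with dim signals, at most 64.0. Another probe set of NRP1 was nearly level, at -0.02 on the log2 scale, and another of FLT1 gave no difference. The 2 others of NRP2 were at -0.55 and -0.09. PGF, a relative of VEGFA, was 1.24-fold higher in the combination and 1.71-fold higher with ultrasound only. Its probe set is of a type that can bind related sequences, and no other probe set of PGF was above the floor.

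The mitophagy list had a median of 0.06 over 12 genes, with 0 at 1.5-fold either way, against 5.87% of all genes higher and 4.67% lower. BNIP3L, the closest relative of BNIP3, stood at 581 in the combination, 581 with ultrasound only, 602 with Sonazoid only and 412 in control. All 3 treated arrays were alike, 1.41-fold, 1.41-fold and 1.46-fold above control, and the second probe set of BNIP3L was 0.39 higher in the combination on the log2 scale. OPTN, an autophagy receptor, was 1.33-fold higher in the combination and PINK1, the kinase that labels damaged mitochondria, 1.23-fold lower, with another probe set going the opposite way.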

How the data were processed

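The authors deposited an intensity on a linear scale for each of 54675 probe sets on 4 arrays, from 0.0486 to 21728. Per the labels' protocols, RNA was labelled with the manufacturer's one-cycle kit from the 3′ end. Which summarisation algorithm and scaling they used is not given in the sources. Trimmed means, with 2% removed at each end, differed 1.16-fold, so each array was scaled to their common mean, with factors of 0.923 for the combination, 1.07 for ultrasound only, 0.977 for Sonazoid only and 1.04 for control. The number of arrays limits the precision. Probe sets were named where the platform annotation gives 1 symbol (41097), updated through the RefSeq gene table of GRCh38.p14 (41043), and the 62 control probe sets were left out. The computation (Python 3.11.15, pandas 2.3.3, numpy 2.4.6) was tested on simulated data. No test between groups was made. The genes, gene lists and named-gene rule were chosen with earlier results of these data known. Named were the 10 genes, list members at 1.5-fold in the combination or with ultrasound only, the 3 farthest from 0 in the combination, ACTB, and the 3 profiles nearest to each gene at 2-fold. Some genes on the lists were not analysed here. Alternatives were other scalings, floors and probe set choices.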

Additional observations from a re-analysis of the deposited data

How the results depend on the processing

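Of the counts of the 10 genes at 2-fold, in 5 comparisons and the departure from additivity, 67 of 72 stayed the same under the 6 alternatives. Every main count but that of genes higher in the combination against control was 0, so most of these only asked whether 0 stayed 0. In the combination against control 2 genes were higher; the count was 1 (PFKFB4) with a floor of 100 and 0 with no floor and log2(signal + 16). With gene-specific probe sets, which 6 genes have, 1 gene (SLC2A1, as a lower bound) was 2-fold lower in each of the combination, ultrasound only and Sonazoid only against control, where the count was 0. Of 329 single differences 319 moved by less than 1.5-fold and stayed on their side of 2-fold, 10 did not. The sign turned in 29 of the 329, for 21 of 60 differences, including all 6 of HK2 and none of ADM or PFKFB4. The unscaled values shifted the all-gene median by 0.17 in the combination against control and by 0.21 in the combination against ultrasound only. In them 80.5% of the genes at 2-fold were higher in the first, against 61.4%, and 72.2% in the second, against 37.7%, and 63.0% in Sonazoid only against control, against 47.7%. A floor of 100 gave 49 higher and 13 lower genes in the combination against control, and log2(signal + 16) gave 360 and 280, against 180 and 113. LDHA, VEGFA, PFKFB3 and SLC2A3 have no gene-specific probe set and no value under that choice. The causes were not tested. No paired analysis was possible because each group has 1 array. Dim signals limit the depth: ADM, PFKFB4 and the receptor genes lie near or under a signal of 200.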
